A study of Mus musculus with 17 samples.

Results

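The genes described here encode the signalling chains of the T cell antigen receptor, the coreceptors of helper and cytotoxic T cells, and the first kinase and adaptor below them: Cd3d, Cd3e, Cd3g, Cd247, Cd4, Cd8a, Cd8b1, Zap70 and Lat. They were chosen by name, as 10 genes, and each was read from a probe set annotated to 1 symbol, the one whose mean over all 17 arrays was highest. 9 of the 10 had such a probe set, among 18193 genes on the array, and all 9 were among the 12696 genes tested. Lck, the kinase that rides on both coreceptors, had none and is not analysed here.

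RNA was taken from the whole blood of female C57BL/6JJcl mice irradiated at 8 weeks of age and bled 24 h after a single total-body exposure to X-rays. The control group held 5 mice at 0 Gy, and the groups at 0.5 Gy, 1.0 Gy and 3.0 Gy held 4 mice each. All groups share strain, sex, age and the blood tube, which stabilises RNA, and each array holds 200 ng of RNA from 1 mouse. Blood was not sorted, so each value is an average over every circulating cell type.

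The antigen receptor of T cells consists of a variable receptor pair that binds antigen and has almost no cytoplasmic part, and of invariant CD3 and zeta chains that carry the signal inward. CD4 and CD8 bind the same MHC molecule as the receptor and bring the kinase LCK, which phosphorylates the tyrosine motifs of the CD3 and zeta chains. ZAP-70 then docks on those motifs and phosphorylates LAT, a membrane adaptor on which calcium and Ras signalling are assembled. In blood these transcripts belong mainly to T cells, but Cd247 and Zap70 are also made by natural killer (NK) cells, and Lat by NK cells and platelets.

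The genes Cd3g and Cd3d are head-to-head neighbours on mouse chromosome 9, with Cd3e beside them on the same chromosome. The 250 bases before a transcript start of each, and of Lat, are shown. They were picked because Cd3d and Cd3g changed by like amounts in these arrays while Cd3e changed less. Lat was added as a gene whose level did not pass the test at any dose. The annotated genes Cd3d, Cd3e and Lat begin inside their windows, so part of each of these windows lies within the gene. The windows are from RefSeq (GRCm38.p6), written 5′ to 3′ in the direction of transcription, and cover chr9:44981536-44981785 (plus strand) for Cd3d, chr9:44980432-44980681 (minus strand) for Cd3g, chr9:45009612-45009861 (minus strand) for Cd3e and chr7:126369569-126369818 (minus strand) for Lat. Capitals mark matches, on either strand, to the cores of 5 kinds of lymphocyte transcription factor site (RUNX, ETS, TCF/LEF, GATA and E-box), whose letters follow the windows.
Cd3d: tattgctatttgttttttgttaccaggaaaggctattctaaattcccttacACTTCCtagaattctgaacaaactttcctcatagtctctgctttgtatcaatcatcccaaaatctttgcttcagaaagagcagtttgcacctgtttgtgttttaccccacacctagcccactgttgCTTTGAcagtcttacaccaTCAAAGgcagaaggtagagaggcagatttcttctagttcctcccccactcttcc
Cd3g: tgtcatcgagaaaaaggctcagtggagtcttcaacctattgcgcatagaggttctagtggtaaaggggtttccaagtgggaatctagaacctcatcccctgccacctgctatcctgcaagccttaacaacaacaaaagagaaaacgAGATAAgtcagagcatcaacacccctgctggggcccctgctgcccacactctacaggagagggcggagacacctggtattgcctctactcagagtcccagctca
Cd3e: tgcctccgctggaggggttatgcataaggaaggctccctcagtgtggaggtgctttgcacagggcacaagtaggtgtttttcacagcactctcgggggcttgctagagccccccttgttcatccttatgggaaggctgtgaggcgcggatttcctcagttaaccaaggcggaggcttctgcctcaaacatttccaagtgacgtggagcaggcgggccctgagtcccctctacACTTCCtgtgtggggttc
Lat: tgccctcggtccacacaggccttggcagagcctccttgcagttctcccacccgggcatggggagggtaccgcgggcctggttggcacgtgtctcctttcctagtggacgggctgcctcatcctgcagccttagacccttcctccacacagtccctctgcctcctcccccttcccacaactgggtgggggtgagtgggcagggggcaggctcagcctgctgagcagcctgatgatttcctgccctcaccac
The windows of Cd3g and Cd3d are separated by 854 bases. The Cd3d window held 3 matches, an ETS core on the opposite strand at position -199 from the transcript start and TCF/LEF cores at -73 and -54. The Cd3e window held 1 ETS core at -18, the Cd3g window 1 GATA core at -104, and the Lat window none. The ETS core of Cd3e lies inside the annotated gene. Such short cores are common among the 32851 mouse windows of this length in the table. The ETS core GGAAGT was present in 19.7% of these windows, and the RUNX core, searched as TGTGGT, was present in 14.0% of them. The TCF/LEF core CTTTGA was present in 13.8% of the windows, the E-box written CAGCTG was present in 13.0%, and the GATA core AGATAA was present in 9.99%. A match is a run of letters and not a shown binding site.

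Values are on the log2 scale of robust multi-array averaging (RMA), so a difference of 1 is a 2-fold change, and levels of different probe sets are not compared. Array medians lay between 3.47 and 3.57, and all 9 genes were above their array's median on all 17 arrays. Among blood cell markers, in the control group the red cell gene Alas2 read 13.90, the platelet gene Ppbp 12.63 and the neutrophil gene S100a8 12.03. These were the highest values in their lists. The red cell gene Rhag read 3.77 and the neutrophil gene Ltf 3.49, close to the array medians. The 18S ribosomal control probe sets differed between groups, at 10.52 ± 0.49 (SD, n = 5) in control, 12.69 ± 0.77 at 0.5 Gy, 13.28 ± 0.28 at 1.0 Gy and 10.68 ± 0.14 at 3.0 Gy (n = 4 each). Their part in the changes at 0.5 and 1.0 Gy was not tested beyond a fit with this level as a covariate.

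At 3.0 Gy, 5 of the 9 genes fell: Cd8b1 by 10.3-fold, Cd3g by 4.81-fold, Cd3d by 4.8-fold, Cd247 by 4.1-fold and Cd3e by 1.56-fold. For each of the 5, every array at 3.0 Gy lay below every control array. Cd4, Cd8a, Zap70 and Lat did not pass the test on the probe sets used, although other probe sets of Cd8a and Zap70 did. None of the 9 rose at any dose (limma; 0 also at an unadjusted p under 0.05). A call is an adjusted p under 0.05 in limma, and among all 12696 genes 29.2% were called lower at 3.0 Gy and 20.0% higher. 22.9% of all genes had every 3.0 Gy array below every control array. In whole blood, fewer T cells and less of a transcript per T cell cannot be told apart.

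**Figure D1:**
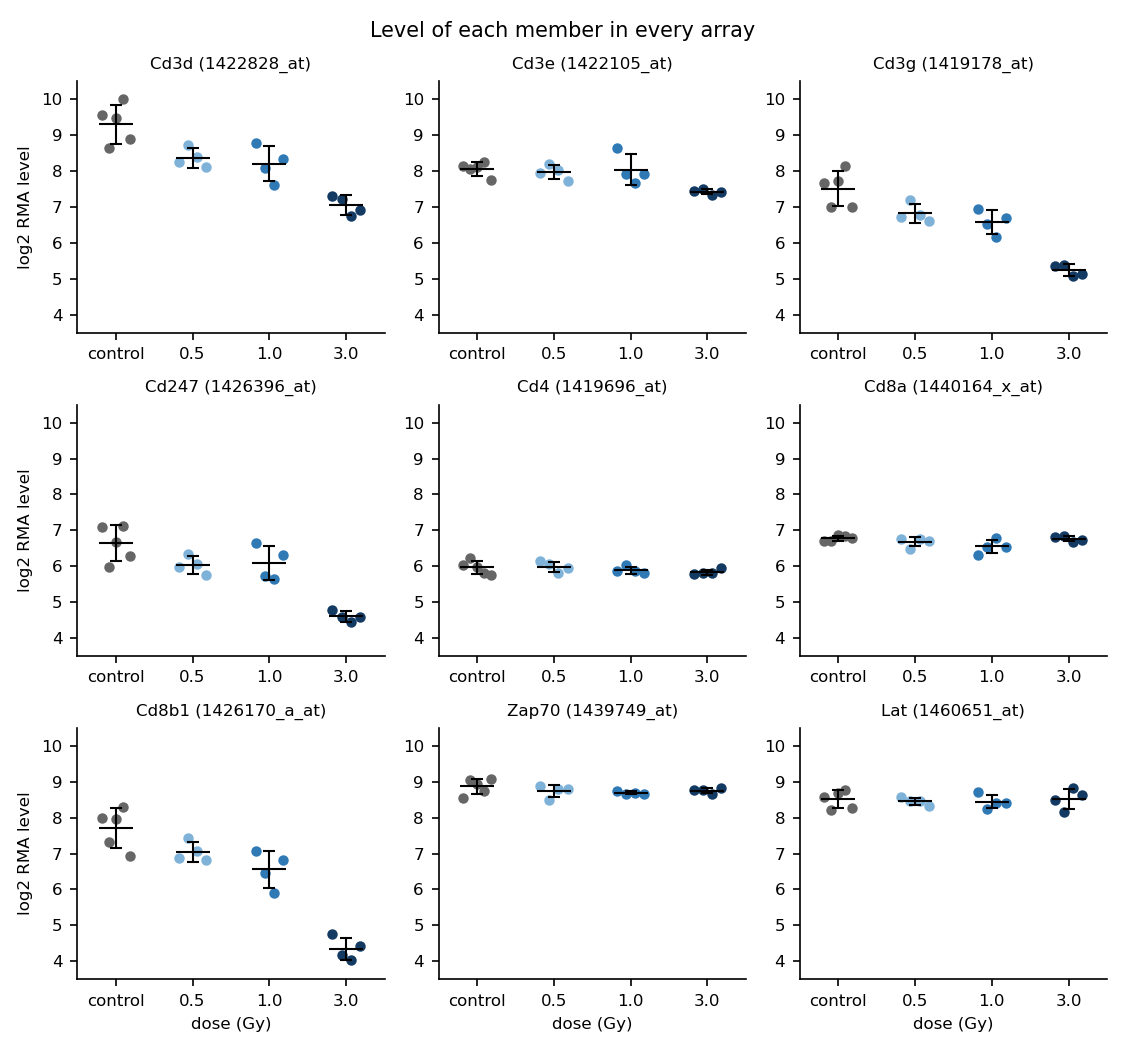
Level of each of the 9 genes in every array. Each panel is 1 gene on its probe set, with dose in Gy on the horizontal axis and the log2 RMA level on the vertical axis; points are arrays (5 control, 4 at each dose) and the horizontal line is the group mean with error bars of 1 SD. Cd3d, Cd3g, Cd247 and Cd8b1 step down with a clear gap at 3.0 Gy, Cd3e drops by less, and Cd4, Cd8a, Zap70 and Lat stay within about the same band.

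CD3 delta, encoded by Cd3d, pairs with CD3 epsilon and sits beside the receptor's alpha chain. Cd3d (probe set 1422828_at) read 9.55, 8.64, 9.48, 10 and 8.90 in the 5 control arrays, 8.25, 8.74, 8.38 and 8.11 at 0.5 Gy, 8.79, 8.08, 7.62 and 8.33 at 1.0 Gy, and 7.32, 7.23, 6.74 and 6.91 at 3.0 Gy. At both 0.5 and 1.0 Gy 3 of 4 arrays were below every control array, and at 3.0 Gy all 4 were, also below every array of the other doses. Against control, Cd3d fell by 0.94 ± 0.25 (SE) at 0.5 Gy (adjusted p = 0.0183), by 1.11 ± 0.25 at 1.0 Gy (adjusted p = 0.00334) and by 2.26 ± 0.25 at 3.0 Gy (adjusted p = 6.02e-07). It was 1 of 2 members called lower at 0.5 Gy, where 5.0% of all genes were, and 1 of 3 at 1.0 Gy, where 8.49% were. The call at 0.5 Gy ended without control replicate 4 (adjusted p = 0.0566) or without 0.5 Gy replicates 1, 3 or 4 (0.0616, 0.0516 and 0.0682).

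CD3 gamma, encoded by Cd3g, pairs with another epsilon chain beside the beta chain. Cd3g (1419178_at) read 7.68, 7.01, 7.72, 8.13 and 7.01 in control, 6.73, 7.21, 6.77 and 6.60 at 0.5 Gy, 6.94, 6.54, 6.16 and 6.69 at 1.0 Gy, and 5.37, 5.39, 5.08 and 5.14 at 3.0 Gy. On the probe sets used, Cd3g was the only member with every 1.0 Gy array below every control array, a pattern seen in 6.38% of all genes. No member had it at 0.5 Gy on these probe sets, where 4.54% of all genes did. At 0.5 Gy 3 of 4 arrays lay below the controls, and at 3.0 Gy the group was apart from all others by more than the range within it. The changes against control were -0.68 ± 0.21 at 0.5 Gy (adjusted p = 0.0416), -0.93 ± 0.21 at 1.0 Gy (0.00336) and -2.27 ± 0.21 at 3.0 Gy (9.3e-08). The 0.5 Gy call was close to the threshold: it ended without any 1 of control replicates 1, 3 and 4, without 0.5 Gy replicates 1, 3 or 4, without 1.0 Gy replicates 2 or 4, and without 3.0 Gy replicate 1, with adjusted p up to 0.133.

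CD3 epsilon, encoded by Cd3e, is present in both CD3 pairs and is the chain most often used to stain T cells. Cd3e (1422105_at) read 8.14, 8.07, 8.12, 8.27 and 7.75 in control, 7.96, 8.21, 8.03 and 7.73 at 0.5 Gy, 8.65, 7.93, 7.66 and 7.93 at 1.0 Gy, and 7.46, 7.49, 7.33 and 7.43 at 3.0 Gy. The arrays at 0.5 and 1.0 Gy overlapped the controls, and 1.0 Gy replicate 1 held the highest value of all 17 arrays. The 3.0 Gy arrays lay within a narrow band below every other array. Against control the change was -0.08 ± 0.16 at 0.5 Gy (95% interval -0.42 to 0.25) and -0.03 ± 0.16 at 1.0 Gy (-0.36 to 0.31), and at 3.0 Gy Cd3e fell by 0.64 ± 0.16 (adjusted p = 0.00261).

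The zeta chain, encoded by Cd247, carries most of the receptor's tyrosine motifs and is shared with NK cell receptors. Cd247 (1426396_at) read 7.09, 5.98, 6.68, 7.13 and 6.29 in control, 5.97, 6.34, 6.05 and 5.76 at 0.5 Gy, 6.63, 5.73, 5.64 and 6.31 at 1.0 Gy, and 4.78, 4.59, 4.43 and 4.58 at 3.0 Gy. At the lower doses its arrays overlapped the controls, with 2 of 4 below them at each dose, and at 3.0 Gy all 4 lay more than 0.8 below the lowest other array. The changes at 0.5 and 1.0 Gy, -0.60 ± 0.23 and -0.55 ± 0.23, did not pass the test (adjusted p = 0.108 for both), and at 3.0 Gy Cd247 fell by 2.04 ± 0.23 (adjusted p = 7.34e-07). A second probe set, 1452539_a_at, fell at all 3 doses when each probe set was fitted on its own, by 0.83 ± 0.23, 0.96 ± 0.23 and 1.51 ± 0.23 (adjusted p = 0.0283, 0.00646 and 3.01e-05). Another tested probe set, 1420716_at, changed by -0.37 ± 0.12 at 1.0 Gy (adjusted p = 0.0326) and by -0.13 ± 0.12 at 3.0 Gy (0.374). With the mean of all probe sets of Cd247 the change at 3.0 Gy was -0.93 (adjusted p = 4.76e-06). Without control replicate 2, the lowest control array, the probe set used was called at 0.5 Gy (adjusted p = 0.0227) and at 1.0 Gy (0.0244).

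CD8 beta, encoded by Cd8b1, forms the CD8 coreceptor of cytotoxic T cells together with CD8 alpha. Cd8b1 (1426170_a_at) read 8.00, 7.33, 7.95, 8.30 and 6.93 in control, 6.89, 7.44, 7.06 and 6.82 at 0.5 Gy, 7.08, 6.46, 5.89 and 6.81 at 1.0 Gy, and 4.75, 4.18, 4.03 and 4.42 at 3.0 Gy. At 0.5 Gy 2 arrays and at 1.0 Gy 3 arrays lay below every control, and at 3.0 Gy all 4 lay more than 1 log2 unit below any other array. The change was -0.65 ± 0.26 at 0.5 Gy (adjusted p = 0.133), -1.14 ± 0.26 at 1.0 Gy (0.00376) and -3.36 ± 0.26 at 3.0 Gy (1.99e-08). The 3.0 Gy mean, 4.34 ± 0.31, is within 1 log2 unit of the array medians. Without control replicate 5, the lowest control array, Cd8b1 was also called at 0.5 Gy (adjusted p = 0.0335).

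CD8 alpha, encoded by Cd8a, also occurs as a homodimer on some gamma-delta T and dendritic cells. The probe set of Cd8a with the highest mean, 1440164_x_at, read 6.71, 6.71, 6.87, 6.83 and 6.78 in control, 6.76, 6.49, 6.76 and 6.71 at 0.5 Gy, 6.32, 6.54, 6.79 and 6.55 at 1.0 Gy, and 6.81, 6.85, 6.68 and 6.73 at 3.0 Gy. It was flat, with a change of -0.01 ± 0.10 at 3.0 Gy (95% interval -0.23 to 0.20). The probe set 1451673_at of Cd8a read 6.75, 6.08, 6.80, 7.19 and 6.22 in control, 6.09, 6.47, 6.50 and 5.71 at 0.5 Gy, 6.14, 5.46, 5.27 and 6.16 at 1.0 Gy, and 4.28, 4.53, 3.88 and 3.65 at 3.0 Gy. All 4 of its 3.0 Gy arrays were below every other array, as for Cd8b1. The change was -0.85 ± 0.25 at 1.0 Gy (adjusted p = 0.0233) and -2.52 ± 0.25 at 3.0 Gy (2.26e-07), fitted on its own over 20445 probe sets. At 3.0 Gy 1444078_at fell by 1.25 ± 0.21 (adjusted p = 8.64e-05) and 1425335_at by 0.86 ± 0.14 (7.67e-05), while 1440811_x_at changed by -0.19 (0.224). The 5 probe sets of Cd8a disagree. The 2 that did not pass at 3.0 Gy are both of the _x_at type, whose probes can match other sequences as well. Whether these do was not tested. Of the 2, 1440811_x_at was called lower at 1.0 Gy (-0.43 ± 0.13, adjusted p = 0.0256).

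**Figure D2:**
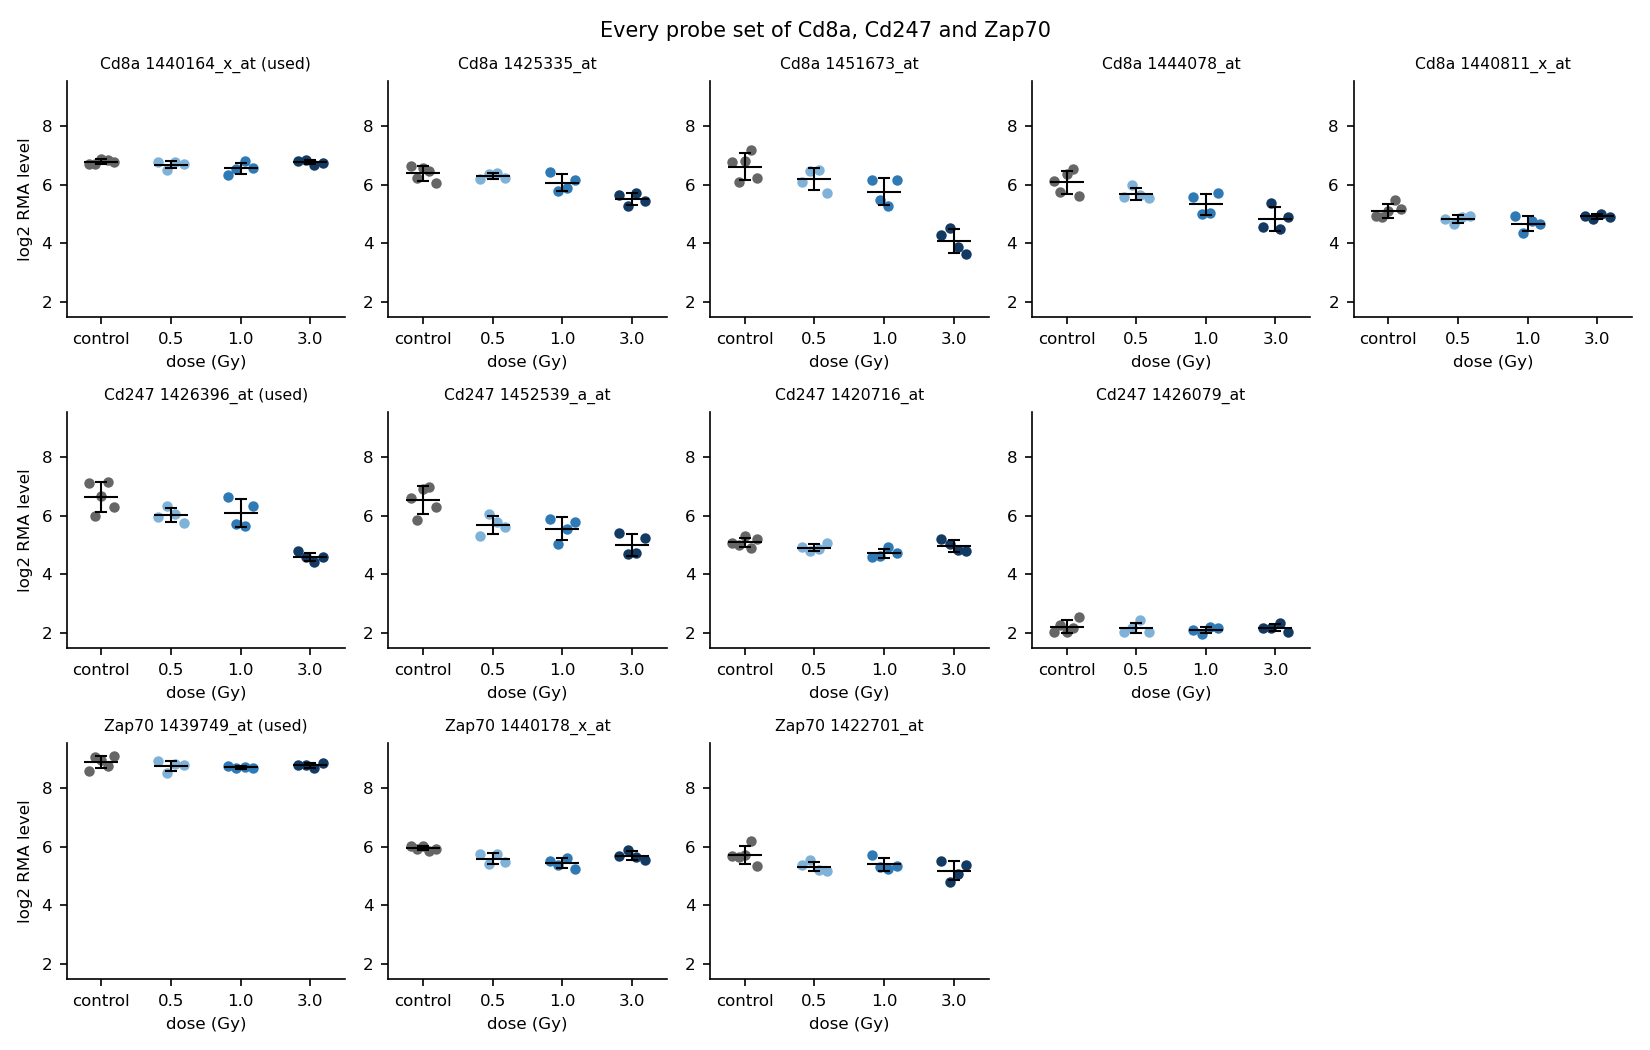
Every probe set of Cd8a, Cd247 and Zap70, with dose in Gy on the horizontal axis and the log2 RMA level on the vertical axis. Points are arrays (5 control, 4 at each dose), horizontal lines are group means with error bars of 1 SD, and the probe set chosen by the highest mean is marked as used. Cd8a 1440164_x_at is flat while 1451673_at, 1444078_at and 1425335_at step down at 3.0 Gy, and Cd247 1426396_at and 1452539_a_at both fall.

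CD4 is the coreceptor of helper T cells. Cd4 (1419696_at) read 6.03, 6.22, 5.99, 5.82 and 5.76 in control, 6.14, 6.05, 5.82 and 5.94 at 0.5 Gy, 5.86, 6.03, 5.86 and 5.81 at 1.0 Gy, and 5.79, 5.81, 5.81 and 5.94 at 3.0 Gy. The groups overlapped at every dose. The changes were 0.02 ± 0.11, -0.07 ± 0.11 and -0.13 ± 0.11 in order of dose, and the 95% interval at 3.0 Gy was -0.35 to 0.09. It overlapped the interval of Cd3e at 3.0 Gy, -0.98 to -0.31. Whether Cd4 and Cd3e changed unequally was not tested. The other probe set of Cd4, 1427779_a_at, was above the array median on 0 arrays and was not tested.

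ZAP-70 is the cytosolic kinase recruited to the phosphorylated chains. Zap70 (1439749_at) read 8.55, 9.04, 8.93, 8.75 and 9.07 in control, 8.89, 8.50, 8.80 and 8.78 at 0.5 Gy, 8.75, 8.66, 8.69 and 8.66 at 1.0 Gy, and 8.76, 8.77, 8.66 and 8.83 at 3.0 Gy. All but 1 of the 12 irradiated arrays lay inside the control range, and the change at 3.0 Gy was -0.12 ± 0.11 (95% interval -0.35 to 0.12). The probe set 1422701_at of Zap70 fell by 0.53 ± 0.16 at 3.0 Gy (adjusted p = 0.0127). The probe set 1440178_x_at fell by 0.51 ± 0.11 at 1.0 Gy (adjusted p = 0.00264) and changed by -0.25 ± 0.11 at 3.0 Gy (0.0683). All 4 of its arrays lay below every control array at 0.5 Gy, and all 4 did at 1.0 Gy. On the probe sets used, 4.54% and 6.38% of all genes had this pattern at these doses.

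LAT is the adaptor phosphorylated by ZAP-70. Lat (1460651_at) read 8.58, 8.21, 8.69, 8.78 and 8.28 in control, 8.57, 8.47, 8.45 and 8.31 at 0.5 Gy, 8.70, 8.25, 8.42 and 8.42 at 1.0 Gy, and 8.48, 8.16, 8.81 and 8.62 at 3.0 Gy. The groups overlapped throughout, and 3.0 Gy replicates 2 and 3 gave the lowest and the highest of all 17 values. The change at 3.0 Gy was 0.01 ± 0.14 (95% interval -0.29 to 0.31). The 12 platelet markers, a cell type that also makes Lat, all rose at every dose, from a mean level of 9.29 (8.97 to 9.48) in control to 11.07 (10.65 to 11.40) at 3.0 Gy. Their part in the level of Lat was not tested.

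**Figure D3:**
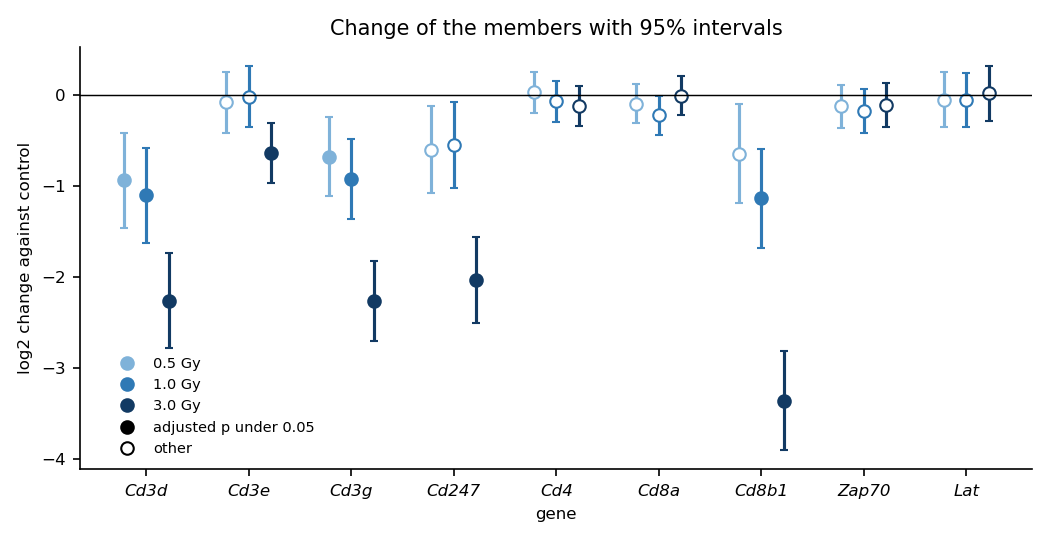
Log2 change of each gene against control at 0.5, 1.0 and 3.0 Gy, with 95% intervals from limma. Filled points passed an adjusted p of 0.05 and open points did not. Cd8b1 lies lowest, at -3.36 for 3.0 Gy, and the intervals of Cd4, Cd8a, Zap70 and Lat at 3.0 Gy span 0.

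Over all 19 probe sets of the 9 genes, 17 were tested. On the 9 probe sets used, 2 were lower at 0.5 Gy, 3 at 1.0 Gy and 5 at 3.0 Gy; of the 8 others tested, 1, 6 and 5 were. With the mean of all probe sets of a gene in place of 1, 4 members were lower at 0.5 Gy and 6 at 1.0 Gy. With the 18S level as a covariate, all calls at 0.5 and 1.0 Gy ended, with larger standard errors: Cd3d changed by -1.09 ± 0.54 at 0.5 Gy (adjusted p = 0.315) and by -1.30 ± 0.65 at 1.0 Gy (0.336). The same fit kept all 5 calls at 3.0 Gy, where the 18S level was close to control, with Cd8b1 at -3.34 (adjusted p = 3.57e-08) and Cd3e at -0.62 (0.00374).

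Between doses, the same 5 genes were lower at 3.0 Gy than at 1.0 Gy, against 22.7% of all genes, and lower than at 0.5 Gy, against 20.9%. Cd8b1 differed most, by -2.22 ± 0.27 from 1.0 Gy (adjusted p = 1.51e-05) and by -2.71 ± 0.27 from 0.5 Gy (2.81e-06). The steps from 1.0 to 3.0 Gy were -1.48 ± 0.24 for Cd247 (adjusted p = 0.000159), -1.34 ± 0.22 for Cd3g (0.000176), -1.15 ± 0.26 for Cd3d (0.00239) and -0.62 ± 0.17 for Cd3e (0.00863). For Cd247 this step was -0.43 (adjusted p = 0.0124) with the mean of all probe sets and -0.55 (0.0787) with the probe set of largest interquartile range. In each of the 5 every 3.0 Gy array lay below every 1.0 Gy array, as in 18.3% of all genes, and below every 0.5 Gy array, as in 20.1%. With the 18S covariate none of the steps from 1.0 Gy passed, and of those from 0.5 Gy only that of Cd8b1 did (-2.88, adjusted p = 0.0214). The step of Cd3e from 0.5 Gy, -0.56 ± 0.17 (adjusted p = 0.0158), lost its call without 0.5 Gy replicate 2 (0.0596).

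No member passed the test between 0.5 and 1.0 Gy (limma; 0 also at an unadjusted p under 0.05), where 0.0158% of all genes were lower. The difference was -0.49 ± 0.27 for Cd8b1 (95% interval -1.06 to 0.08) and -0.25 ± 0.22 for Cd3g (-0.70 to 0.21). Fitted as a slope on dose over all 17 arrays, the change per Gy was -1.11 ± 0.08 for Cd8b1 (adjusted p = 3.54e-08), -0.72 ± 0.07 for Cd3g (3.74e-07), -0.69 ± 0.09 for Cd3d (6.46e-06), -0.65 ± 0.08 for Cd247 (2.1e-06) and -0.22 ± 0.05 for Cd3e (0.00186). The slopes of the other 4 members did not pass, against 27.5% of all genes with a called negative slope.

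Within each array, the difference between 2 members was taken and compared with that in control; it shows whether their probe sets changed unequally, which also depends on how each probe set responds. The 21 such changes against control were tested with two-sided exact permutation tests over arrays, whose smallest possible p is 0.00794, and 8 had a p adjusted over the 21 under 0.05. Cd3d fell relative to Cd3e at every dose, by 0.86 at 0.5 Gy (exact p = 0.0159), 1.08 at 1.0 Gy (exact p = 0.0159) and 1.62 at 3.0 Gy (exact p = 0.00794), each with adjusted p = 0.0417 and with 4 of 4 arrays below every control. Cd3g relative to Cd3e gave -0.60 at 0.5 Gy (exact p = 0.0238, adjusted 0.0556), -0.90 at 1.0 Gy (exact p = 0.0159, adjusted 0.0417) and -1.63 at 3.0 Gy (exact p = 0.00794, adjusted 0.0417). On these probe sets the delta and gamma transcripts dropped by more than epsilon.

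At 3.0 Gy Cd247 fell by 1.40 relative to Cd3e (exact p = 0.0159, adjusted 0.0417). With the mean of all probe sets this was -0.29 (exact p = 0.0635, adjusted 0.0952), and with the probe set of largest interquartile range -0.87 (exact p = 0.0317, adjusted 0.0476). Lat rose by 0.65 relative to Cd3e at 3.0 Gy (exact p = 0.00794, adjusted 0.0417), with 4 of 4 arrays above every control. The change of Zap70 relative to Cd3e, 0.53, did not pass after adjustment (exact p = 0.0317, adjusted 0.0667). Between the coreceptors, Cd8b1 fell by 3.23 relative to Cd4 (exact p = 0.00794, adjusted 0.0417), with 4 of 4 arrays below every control. Cd8a relative to Cd4 gave 0.11 at 3.0 Gy with the probe set used (exact p = 0.429) and turned to -2.53 with the probe set of largest interquartile range. With 1 array left out, between 0 and 8 of the 21 passed. Leaving out an array also raises the smallest possible p of its comparisons. These counts therefore cannot show whether a change rests on 1 array.

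The control mice at the high and low end were the same for 6 of these genes. Control replicate 4 was highest for Cd3d, Cd3e, Cd3g, Cd247, Cd8b1 and Lat, and replicates 2 and 5 were the lowest for the same 6 genes. Over the 17 arrays, Pearson's r with Cd3e was 0.869 for Cd247, 0.844 for Cd8b1, 0.831 for Cd3g, 0.818 for Cd3d, 0.32 for Cd4, 0.212 for Lat, -0.076 for Zap70 and -0.499 for Cd8a. These arrays share the dose steps, so the values only describe likeness. Of the tested genes outside the set, the most like Cd3e were Skap1 (r = 0.943), Mtf2 (0.942), Gnl2 (0.925), Kbtbd11 (0.922) and Atp1b3 (0.921), of which Skap1 encodes an adaptor of T cell adhesion. The most like Lat were Fam120aos (0.837), Dda1 (0.781), Eif3h (0.773), Scp2 (0.75) and Sar1b (0.74).

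The antigen-binding chains are represented by 17 probe sets of 10 genes. Of these, 13 probe sets of 8 genes are for the alpha and beta chains and 4 probe sets of 2 genes for the gamma chain. Of the 17, 4 had a control mean above 8, all of alpha or beta segments. They are described without a test, because a probe set for a rearranging locus can match several segments. Trav9d-3 1452405_x_at read 9.35 ± 0.40 (n = 5) in control, 9.02 ± 0.27 at 0.5 Gy, 8.99 ± 0.51 at 1.0 Gy and 7.10 ± 0.38 at 3.0 Gy (n = 4 each). Trav9d-3 1426168_a_at read 8.84 ± 0.42, 8.51 ± 0.37, 8.42 ± 0.55 and 6.36 ± 0.31, and Trbv1 1452205_x_at read 9.16 ± 0.47, 8.65 ± 0.26, 8.53 ± 0.51 and 6.98 ± 0.32 in the same order. These 3 probe sets were lowest at 3.0 Gy.

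Of 50 other genes of T cell receptor signalling, 46 were tested. At 3.0 Gy 25 fell and 7 rose, where 29.2% of all genes fell and 20.0% rose. The median change was -0.38, against 0.04 over all genes. At 0.5 Gy none fell in limma (5 at an unadjusted p under 0.05) and 5 rose, where 5.0% of all genes fell and 5.24% rose. At 1.0 Gy 2 fell and 8 rose, where 8.49% of all genes fell and 8.80% rose. The medians were -0.03 and 0.05, against -0.02 and -0.04 over all genes. The 2 that fell at 1.0 Gy, named after their values were seen, were the adaptors Sh2d1a (-0.81 ± 0.25, adjusted p = 0.0316) and Sh2d2a (-0.31 ± 0.10, adjusted p = 0.0388). Both calls ended without control replicates 1, 3 or 4 and without 1.0 Gy replicate 2, that of Sh2d1a also without 1.0 Gy replicate 3, and that of Sh2d2a also without 1.0 Gy replicates 1 or 4 and with repeated quantile normalization (0.0567). With the 18S covariate neither fell at 1.0 Gy (adjusted p = 0.602 for Sh2d1a and 0.878 for Sh2d2a), 1 signalling gene rather than 5 rose at 0.5 Gy, and 2 rather than 8 rose at 1.0 Gy. With repeated quantile normalization 13 rather than 7 rose at 3.0 Gy, and over all genes the calls went from 2534 higher and 3703 lower to 3696 and 3330.

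Btla, an inhibitory receptor of B and T cells, read 9.16 ± 0.39 in control and 5.44 ± 0.68 at 3.0 Gy, a fall of 3.73 ± 0.29 (adjusted p = 2.16e-08). Cd2, an adhesion receptor, fell by 2.18 ± 0.26 (adjusted p = 1.75e-06), and Cd5, which dampens receptor signals, by 1.75 ± 0.22 (2.97e-06). Rasgrp1, the exchange factor that activates Ras below LAT, fell by 2.11 ± 0.23 (adjusted p = 4.73e-07). Nfatc3, a calcium-responsive transcription factor, fell by 1.84 ± 0.25 (adjusted p = 7.29e-06), and Dgka, a kinase that removes diacylglycerol, by 1.74 ± 0.23 (4.04e-06). The size depended on the probe set for Nfatc3, at -0.51 without the _x_at and _s_at types, and for Rasgrp1, at -0.78 with the mean of all probe sets. For these 6 genes no change at 0.5 or 1.0 Gy passed the test as fitted, although Btla at 1.0 Gy (-0.84, adjusted p = 0.0537) passed in 10 of 29 alternatives, 6 of them with 1 array left out, and Cd2 at 0.5 Gy (-0.63, 0.152) in 2.

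Prkcq, the protein kinase C of the T cell synapse that is also made in platelets, rose at every dose, from 8.33 ± 0.13 in control to 8.93 ± 0.12, 9.21 ± 0.31 and 9.28 ± 0.31, a change of 0.95 ± 0.15 at 3.0 Gy (adjusted p = 3e-05). Grap2, an adaptor that links LAT to SLP-76, rose by 0.92 ± 0.15 at 3.0 Gy (adjusted p = 6.26e-05) and the calcium channel Orai1 by 0.61 ± 0.11 (0.000177). The kinase Fyn rose at 0.5 Gy by 0.59 ± 0.17 (adjusted p = 0.0335), at 1.0 Gy by 0.67 ± 0.17 (0.01) and at 3.0 Gy by 0.61 ± 0.17 (0.00694). The adaptor Fyb rose at 0.5 Gy by 0.63 ± 0.17 (adjusted p = 0.0235) and at 1.0 Gy by 0.91 ± 0.17 (0.000811). The ubiquitin ligase Cbl rose at the same doses by 0.61 ± 0.16 (0.0178) and 0.74 ± 0.16 (0.00243). At 3.0 Gy Fyb and Cbl changed by 0.42 (0.052) and -0.16 (0.418). Of 29 alternatives, the 1.0 Gy call was kept in 28 for Fyb, 28 for Cbl and 26 for Fyn. With the 18S covariate the 0.5 Gy calls of Prkcq, Fyn, Fyb and Cbl ended (adjusted p = 0.0576, 0.059, 0.129 and 0.388). They also ended without 0.5 Gy replicate 3 for all 4, without 0.5 Gy replicate 2 for Fyn, Fyb and Cbl, without 0.5 Gy replicate 1 for Fyn and Fyb, without control replicate 5 for Fyn and Fyb, and without control replicates 3 or 4 for Fyn. With the mean of all probe sets the calls of Fyb (0.0817) and Cbl (0.304) at 0.5 Gy ended. The 3.0 Gy change of Fyb passed in 8 of 29 alternatives, among them without control replicate 1 (0.0308) and without 3.0 Gy replicate 2 (0.0162). Itpkb, an inositol phosphate kinase, rose by 0.60 ± 0.14 at 3.0 Gy (adjusted p = 0.00152) and Nfatc1 by 0.37 ± 0.12 (0.0163), but with the probe set of largest interquartile range they turned to -1.16 and -0.95. Itpkb was also called at 0.5 Gy (0.53 ± 0.14, adjusted p = 0.0183) and at 1.0 Gy (0.64 ± 0.14, 0.00272). Of 29 alternatives, 24 kept its 0.5 Gy call and 27 its 1.0 Gy call. The platelet markers rose in the same arrays, and their part in these rises was not tested.

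**Figure D4:**
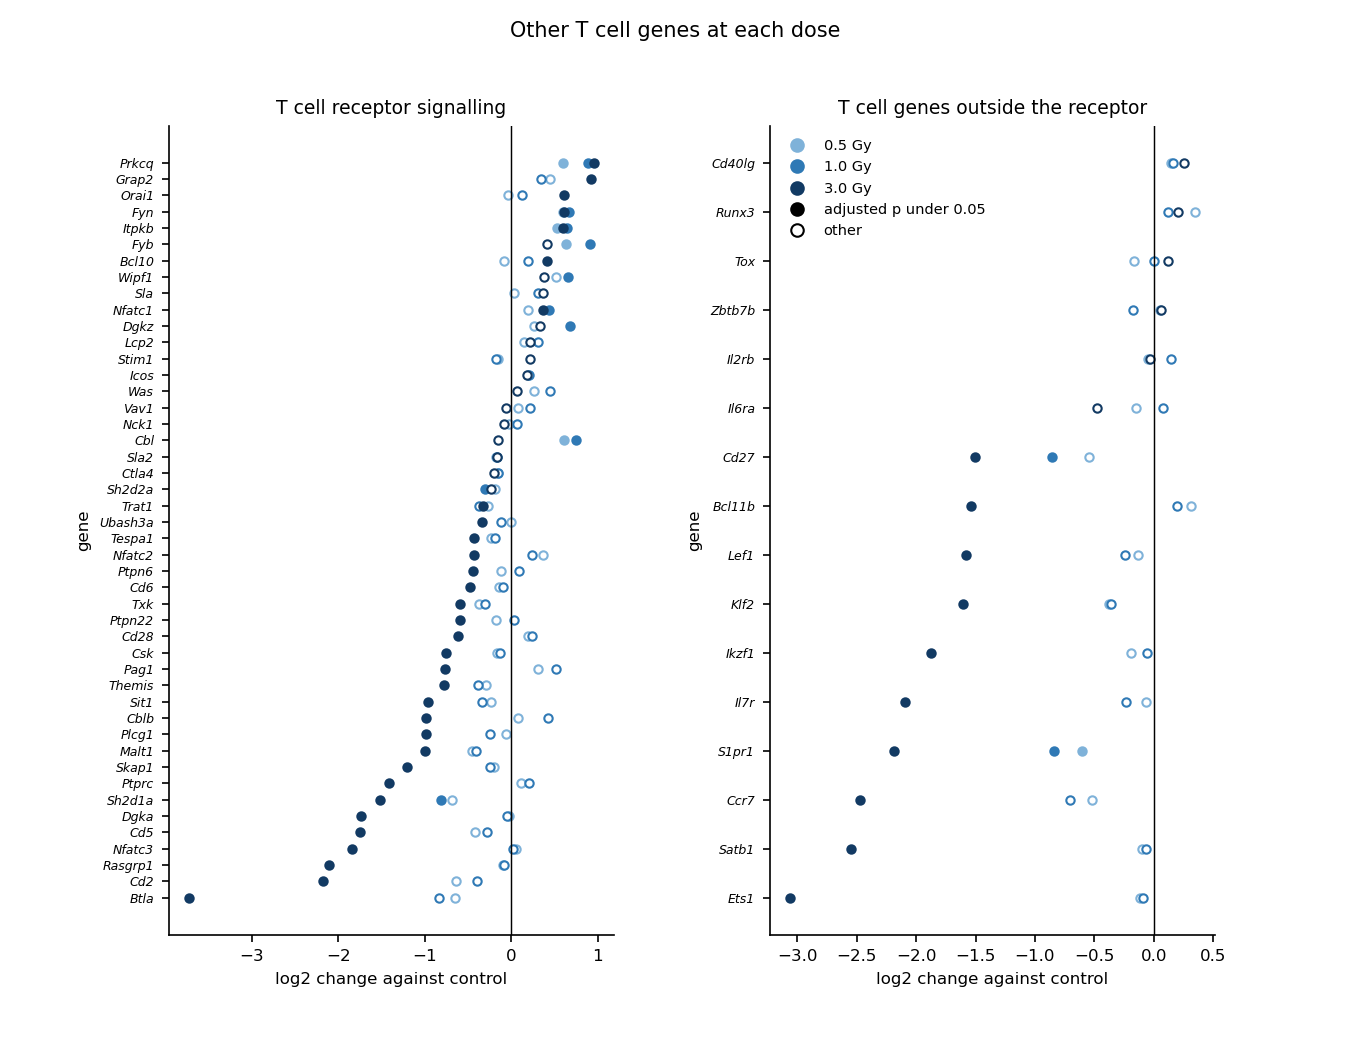
Log2 change against control (horizontal axis) at 0.5, 1.0 and 3.0 Gy of each tested gene (vertical axis), 46 of T cell receptor signalling on the left and 16 T cell genes outside the receptor on the right. Filled points passed an adjusted p of 0.05 and open points did not. Btla and Ets1 lie farthest left at 3.0 Gy, at -3.73 and -3.06, while their points at 0.5 and 1.0 Gy lie within 1 log2 unit of 0.

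Of 20 T cell genes outside the receptor, 16 were tested, and 10 fell and none rose in limma at 3.0 Gy (1 higher at an unadjusted p under 0.05). Among all genes 29.2% fell and 20.0% rose at that dose. The median was -1.56, against 0.04 over all genes. At 0.5 Gy 1 fell, where 5.0% of all genes did, and at 1.0 Gy 2 fell, where 8.49% did. The medians were -0.12 and -0.08, against -0.02 and -0.04 over all genes. Ets1, a transcription factor of lymphocytes, changed by -3.06 ± 0.28 (adjusted p = 7.93e-08), the lymph node homing receptor Ccr7 by -2.47 ± 0.25 (2.87e-07) and the interleukin-7 receptor Il7r by -2.10 ± 0.26 (1.98e-06). S1pr1, the receptor by which lymphocytes leave lymph nodes, fell at every dose, by 0.60 ± 0.18 (adjusted p = 0.0322), 0.84 ± 0.18 (0.00194) and 2.19 ± 0.18 (2.54e-08). Its 0.5 Gy call ended without control replicates 1, 3 or 4 and without 0.5 Gy replicates 1, 3 or 4 (adjusted p up to 0.137), and with the 18S covariate the changes of S1pr1 were -1.14 at 0.5 Gy (adjusted p = 0.0781) and -1.52 at 1.0 Gy (0.0502). The zinc finger factors Ikzf1 and Klf2 fell by 1.87 ± 0.22 (adjusted p = 1.68e-06) and 1.61 ± 0.21 (4.93e-06) at 3.0 Gy. With the mean of all probe sets the 3.0 Gy changes of Ets1 and Ikzf1 were -1.85 and -0.88. Cd27, a costimulatory receptor, fell by 0.85 ± 0.25 at 1.0 Gy (adjusted p = 0.0225), a call that ended without control replicate 4, without 1.0 Gy replicates 2 or 3, and with the 18S covariate (0.706).

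Markers of other blood cell types were read in the same arrays. Among all genes 29.2% were called lower at 3.0 Gy and 20.0% higher. Of 11 B cell markers 10 fell at 3.0 Gy, and their mean level went from 7.41 (7.15 to 7.85) in control to 4.85 (4.51 to 5.76). Of 13 NK cell markers, which cover the cells that share Cd247 and Zap70 with T cells, 3 fell and 1 rose at 3.0 Gy. Their mean level was 6.28 (6.08 to 6.50) in control and 6.22 (6.16 to 6.36) at 3.0 Gy. That mean joins opposite moves: Fcer1g went from 9.67 to 11.09 and Klrd1 from 7.05 to 5.61, the largest rise and fall of the list. Of 10 neutrophil markers 6 rose, from a mean of 6.78 (6.51 to 6.96) to 7.53 (7.03 to 7.86), of 10 monocyte and dendritic cell markers 4 fell, and of 8 red cell markers 4 fell and 1 rose. No array value is 0 on this scale, so no marker can be called absent. The part of these shifts in the levels of the receptor genes was not tested. Nor was their part in the levels of the signalling genes and of the T cell genes outside the receptor.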

How the data were processed

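The authors deposited log2 expression values from Affymetrix mouse arrays, 45101 probe sets on 17 arrays, processed with RMA (R 3.3.2) per the submitters' processing notes, with no genome build named. RMA compresses changes near background, and array medians were 3.47 to 3.57. Of the probe sets 34945 carry 1 gene symbol in GEO's platform annotation, 932 several, 9160 none, and 64 are controls. A gene was tested if its probe set was above its array's 50th percentile in at least 4 arrays. Changes were fitted with limma 3.58.1 in R 4.3.3 over all 17 arrays as 4 group means, with empirical Bayes and Benjamini-Hochberg adjustment over 12696 genes (20445 probe sets when each was fitted on its own). Within-array differences were compared by exact permutation. Alternatives changed the filter, normalization, probe set rule, variance model, covariates and arrays 1 at a time. The design listed 24 within-array comparisons; the 3 with Lck were not run. Every member is named; of the T cell lists, the 6 smallest p per direction at 3.0 Gy among calls, and calls at 0.5 or 1.0 Gy where 5 or fewer; and the 5 genes most correlated with Cd3e and Lat. The members and lists were chosen with earlier results of these data known. The script was tested on simulated data. 8 members matched RefSeq promoter windows. Replicates are separate mice, and array number limits precision.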

Additional observations from a re-analysis of the deposited data

Results flagged for a closer look

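Cd4 in 3.0 Gy replicate 4 stood apart from its group: it read 5.94, and the nearest of the other 3 arrays read 5.81. The gap was 0.834 of the group's range, just above the critical value of 0.829 for 4 arrays. It was the only such array among the 36 groups examined (9 genes in 4 groups), where chance alone marks about 1 group in 20.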

How the results depend on the processing

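The 5 members lower at 3.0 Gy stayed 5 to 7 under every alternative and 5 when any 1 array was left out. Of 1811 recomputed values for 63 results of the members, 1746 kept their side of the threshold, 32 lost a call and 24 gained one. In 9, all of Cd8a, the sign turned with a call in the alternative. Of the 1746, 70 changed sign without a call on either side, over 25 results close to 0, among them Cd3e at 0.5 and 1.0 Gy and Cd4 at 0.5 Gy. The 2 members lower at 0.5 Gy became 1 with no filter, with arrays centred on their median and with only the 2 groups compared, 4 with the mean of all probe sets and 0 with the 18S covariate (0 to 3 with 1 array left out). The 3 at 1.0 Gy became 6 with the mean, 5 with the probe set of largest interquartile range (chosen after seeing the data) and 0 with 18S (3 to 4 left out). Against 1.0 Gy, 3.0 Gy gave 0 lower with 18S (5 to 5 left out) and 1 higher, Cd8a, with repeated quantile normalization (0 to 1 left out). Against 0.5 Gy it gave 1 lower with 18S (4 to 5 left out).

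For T cell receptor signalling, the 0 lower at 0.5 Gy (limma) became 2 with the replicate block and 1 with 2 groups (0 to 1 left out); the 5 higher became 3 with the mean, 3 with the block and 1 with 18S (0 to 7). At 1.0 Gy the 2 lower became 4 with the block and 0 with 18S (0 to 4), and the 8 higher became 2 with 18S (6 to 9). At 3.0 Gy the 7 higher became 13 with repeated quantile normalization (5 to 10), and the 25 lower ranged from 20 to 25 left out. The 8 within-array changes became 14 with the largest interquartile range (0 to 8 left out, where fewer arrays also raise the smallest possible p).

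Reversed under the mean of all probe sets, without the _x_at and _s_at types (chosen after seeing the data) and under the largest interquartile range were Cd8a from 1.0 to 3.0 Gy (-0.45, -0.53 and -1.67), from 0.5 to 3.0 Gy (-0.71, -0.77 and -2.11), its slope (-0.31, -0.29 and -0.84) and Cd8a relative to Cd4 at 3.0 Gy (-0.91, -0.73 and -2.53). Itpkb reversed at 0.5 Gy (-0.078, largest range) and 3.0 Gy (-0.28, mean; -1.16, largest range), and Nfatc1 at 3.0 Gy (-0.95, largest range). These settings read other probe sets; the cause was not tested.

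The labels do not say that replicate numbers pair the mice. The correlation of deviations had a median of 0.0666 over 24 same-number pairs, 11 of them over 0.1. Over 84 other pairs the median was -0.0254, with 29 over 0.1. Whether a number marks a shared condition was not tested. With the replicate block 3 members were lower at 0.5 Gy, 3 at 1.0 Gy and 5 at 3.0 Gy.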
